A study of Mus musculus with 15 samples.

Results

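Transcripts of 7 GABA receptor subunit genes were measured in mouse dorsal root ganglia by RNA sequencing: Gabra2, Gabra3, Gabra5, Gabrb2, Gabrg1, Gabbr1 and Gabbr2. They are the rows of the count table, 7 of 39179, whose Ensembl identifiers map to these symbols. The symbols were chosen with earlier results of these data known. The lumbar 4 to 6 ganglia, which hold the cell bodies of hind limb sensory neurons, came from mice of 3 to 6 months on a mixed, mainly C57BL/6, background. Libraries were made from 3 knockout mice with spared nerve injury (SNI), 3 control mice with SNI, 4 naive knockout mice and 5 naive control mice, each mouse with its own animal number and library. The knockout genotype is Wnt1-Cre; mirflox/flox, in which Cre under the Wnt1 promoter deletes the floxed miR-183 cluster (miR-183, miR-96 and miR-182) in neural crest derivatives, among them the sensory neurons and glia of the ganglion. Controls carried Wnt1-Cre, apart from naive replicate 7 and SNI replicates 18 and 23, which were wild type. In SNI the surgeon ligates and transects the tibial and common peroneal branches of the sciatic nerve and spares the sural branch, so an injured ganglion holds neurons with cut and with intact axons. The SNI knockout mice were numbered 948 to 956 and the SNI control mice 974 to 976, so that genotype and animal number series cannot be told apart in the injured groups. All SNI mice were numbered 948 to 976 and all naive mice 1041 to 1082, so injury and animal number series cannot be told apart either.

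GABA-A receptors are chloride channels built from 5 subunits, usually of the alpha, beta and gamma classes. The alpha and gamma subunits set much of their pharmacology, and benzodiazepines bind between them. In sensory neurons the sodium, potassium and chloride cotransporter Slc12a2 keeps internal chloride high, so GABA depolarises these cells, and at their central terminals this underlies presynaptic inhibition. GABA-B receptors are pairs of Gabbr1, which binds GABA, and Gabbr2, which couples to inhibitory G proteins. They are the target of baclofen and reduce calcium entry and transmitter release.

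The cluster's microRNAs and the places in the members' 3′ UTRs that match their seeds are shown because the deletion removes these regulators. The mature sequences are from RefSeq (GRCm38.p6, chromosome 6, minus strand), with seed bases 2 to 8 in capitals. MiR-96-5p and miR-182-5p share all but the last seed base.
miR-183-5p: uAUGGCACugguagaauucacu
miR-96-5p: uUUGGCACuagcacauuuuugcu
miR-182-5p: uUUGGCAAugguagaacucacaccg

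The longest annotated 3′ UTR of each member was searched on the transcribed strand only for the 8mer sites GTGCCATA of miR-183-5p, GTGCCAAA of miR-96-5p and TTGCCAAA of miR-182-5p. It was also searched for the 7mer-m8 sites, which are the same letters without the last base, and for the 7mer-A1 sites, which lack the first base and so are shared by miR-96-5p and miR-182-5p. Matches were found in 3 members. The site letters are in capitals, with the 10 bases on either side, 5′ to 3′ along the transcript; all lie on the minus strand of GRCm38, and the miR-96-5p 8mers of Gabra2 hold the shared 7mer-A1 within them.
Gabra2 first 8mer, chr5:70961578-70961605: aaaacatcccGTGCCAAAagagccattg
Gabra2 second 8mer, chr5:70960644-70960671: ttagaaagctGTGCCAAAaactccaaga
Gabra3 7mer-A1, chrX:72433676-72433702: ctcactttccTGCCAAAgcaattagtc
Gabrg1 7mer-m8 of miR-182-5p, chr5:70752718-70752744: gctgacagtgTTGCCAAtgctacatct

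The Gabra2 matches start at bases 207 and 1141 of a 3′ UTR of 4205 bases. Among the 14443 tested genes with an annotated 3′ UTR, 9.33% held an 8mer, 21.1% a 7mer-m8, 19.4% a 7mer-A1 and 34.3% any of them, with a median 3′ UTR of 1193 bases. None of these letters were found in the 3′ UTRs of Gabra5 (935 bases), Gabrb2 (2137), Gabbr1 (2041) or Gabbr2 (2479). Each match is a description of the letters.

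All 7 members passed the filter on low counts, which kept 16976 genes. Library totals ran from 5252920 to 10822762 counts, and a member had between 36 counts (Gabra5) and 5195 counts (Gabbr1) in a library. The microRNA genes of the cluster held 3 counts or fewer over all libraries (0 for Mir183, 1 for Mir96 and 2 for Mir182), so they do not check the genotype labels. Sensory neuron markers summed to between 21736 and 26015 CPM (counts scaled to a common library size with TMM factors) in every library, with none of the 15 at 0. The 10 spinal cord markers summed to at most 18.3 CPM, with 2 or 3 of them at 0 in each group. Most of the sum was Aqp4, with group means of 9.57 to 14.3 CPM. The marker Slc6a5 had 19 counts in all in knockout SNI libraries, against 1 in control SNI, 1 in knockout naive and 3 in control naive libraries. Control SNI replicate 23 stood apart. It had the lowest total, 7.43% mitochondrial counts against 2.26 to 3.60% in the other 14 libraries, and 1024 CPM of the satellite glia gene Fabp7 against 178 to 307 CPM in the others. Its sum over 7 satellite glia markers was 3519 CPM against 2167 to 2766 CPM, and without Fabp7 the other 6 summed to 2495 CPM, within the 1989 to 2497 CPM of the others.

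Per kb of annotated exon, the GABA-B genes were the most abundant members. Averaged over the 15 libraries, Gabbr1 stood at 56.6 CPM per kb (range 47.9 to 66.8) and Gabbr2 at 24.1 CPM per kb (18.9 to 31.9), and no library of 1 gene reached the range of the other. Gabra2 followed at 9.54 CPM per kb (6.05 to 12.1), below every Gabbr2 value. Gabrg1 averaged 6.62 CPM per kb (2.89 to 18.1) and Gabra3 averaged 5.14 CPM per kb (4.09 to 6.82). Gabra2, Gabrg1 and Gabra3 overlapped in their ranges, so that part of the order does not hold in every library. Gabra5 at 2.79 CPM per kb (1.58 to 5.59) and Gabrb2 at 1.90 CPM per kb (1.21 to 2.55) came last on average and overlapped each other. The Gabra5 range also overlapped those of Gabrg1 and Gabra3. In control SNI replicate 15 Gabra5 exceeded Gabra3, at 4.42 against 4.36 CPM per kb. The exon lengths join the exons of all annotated transcripts, so levels of genes with many isoforms are understated.

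**Figure D1:**
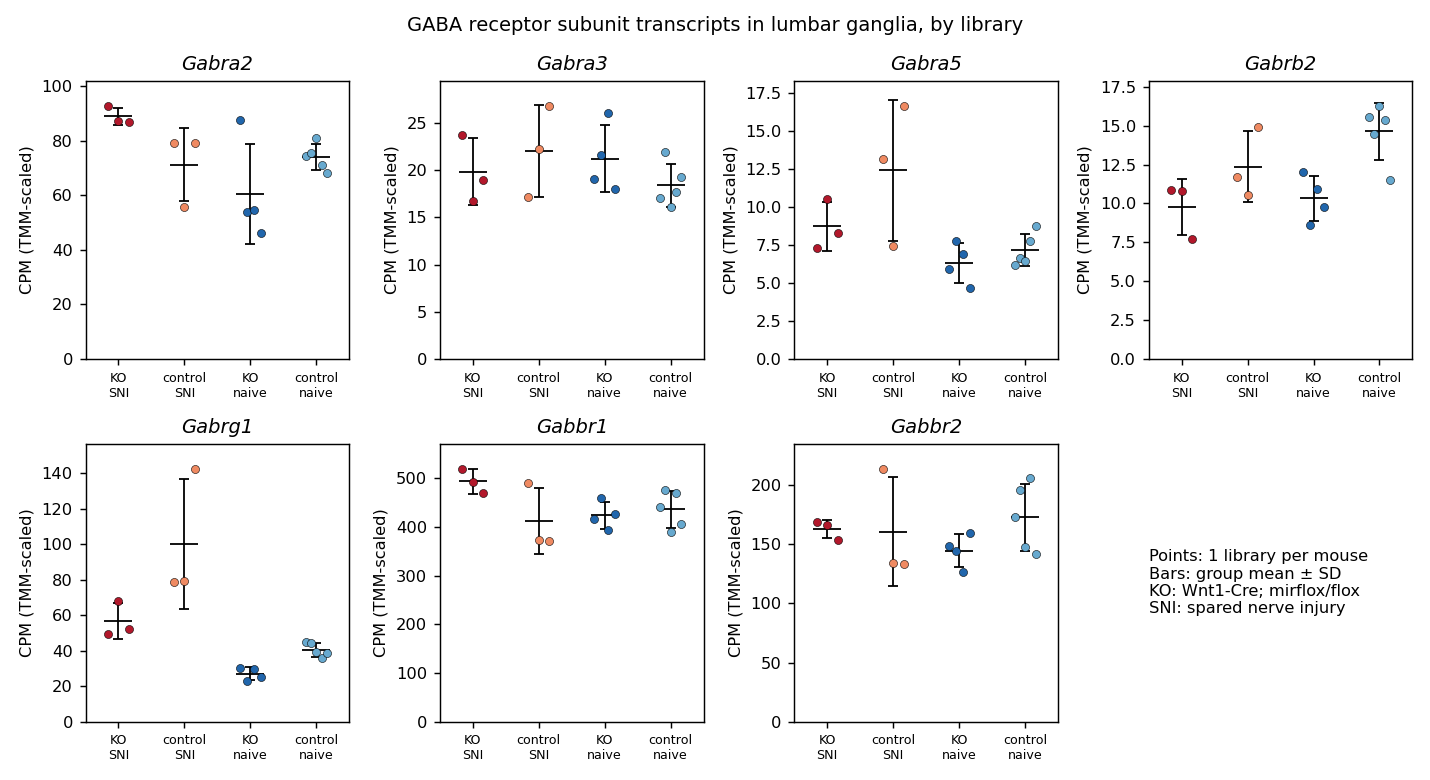
Level of each member in CPM (vertical axis, starting at 0) in knockout SNI, control SNI, knockout naive and control naive ganglia; each point is 1 library and the bars are the group mean and SD. Gabrg1 lies higher in SNI than in naive libraries of the same genotype with no overlap, and the highest point is control SNI replicate 23 at 142 CPM.

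Gabrg1, the gamma 1 subunit, changed most among the members, and it rose with injury in both genotypes (GRCm38 chromosome 5, 70751047 to 70842617, minus strand, next to Gabra2 on the same strand). Knockout SNI libraries had 49.4, 68.3 and 52.3 CPM, control SNI libraries 78.7, 79.5 and 142 CPM, knockout naive libraries 30.1, 22.7, 29.9 and 25.3 CPM, and control naive libraries 45.2, 44.1, 39.03, 35.7 and 38.8 CPM. All SNI libraries lay above all naive libraries of either genotype. Within each state, all knockout libraries lay below all control libraries.

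In knockout mice Gabrg1 averaged 56.7 ± 10.2 CPM after SNI and 27.0 ± 3.62 CPM in naive ganglia (SD, n = 3 and 4), which gave a log2 fold change of 1.07 with an SE of 0.187 (adjusted p = 0.00198, edgeR quasi-likelihood test with Benjamini-Hochberg adjustment over 16976 genes). This is 2.10-fold, with a 95% interval of 1.59 to 2.76. In control mice it averaged 100.2 ± 36.6 CPM after SNI and 40.6 ± 3.97 CPM in naive ganglia (SD, n = 3 and 5), which gave 1.29 on the log2 scale with an SE of 0.173 (edgeR adjusted p = 0.000296). This is 2.45-fold, with a 95% interval of 1.90 to 3.16. The difference between these injury effects, knockout minus control, was -0.23 on the log2 scale (95% interval -0.77 to 0.32, edgeR adjusted p = 0.688). In a ganglion lysate, a different number of cells of a type and a different amount of RNA per cell cannot be told apart. Markers of macrophages rose beside Gabrg1: of 9 markers, 5 were called higher after SNI in knockout mice and 7 in control mice. Over all genes, 7.17% were called higher after SNI in knockout and 2.12% in control mice, and 10.1% and 2.48% in either direction. The macrophage markers summed to 247 to 315 CPM in knockout SNI and 202 to 329 CPM in control SNI libraries. In naive libraries they summed to 143 to 224 CPM in knockout and 122 to 146 CPM in control mice. The 8 skeletal muscle markers summed to 162 to 1232 CPM in knockout SNI, 9.28 to 345 CPM in control SNI, 19.9 to 205 CPM in knockout naive and 6.74 to 102 CPM in control naive libraries. Of these markers 1, Ryr1, was called higher after SNI in knockout mice and none in control mice. The 8 Schwann cell markers, none of them called, summed to 5184 to 9987 CPM in knockout SNI, 6456 to 7072 CPM in control SNI, 8645 to 10058 CPM in knockout naive and 7864 to 12037 CPM in control naive libraries. Of 7 satellite glia markers, 1 was called higher after SNI in knockout mice and none in control mice. Of 15 sensory neuron markers, 1 was called higher and 1 lower after SNI in knockout mice, and 1 higher in control mice. No marker of these lists was at 0 in a whole group, and their part in the Gabrg1 differences was not tested. Without control SNI replicate 23, the library with the highest Gabrg1 and Fabp7 levels, the gene still rose with injury in control mice (log2 fold change 0.97, edgeR adjusted p = 6.89e-05).

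Between genotypes, Gabrg1 was separated without overlap but did not pass the adjusted threshold in either state alone. In SNI ganglia the log2 difference, knockout minus control, was -0.81 (SE 0.197, 95% interval -1.23 to -0.39, unadjusted p = 0.000802, edgeR adjusted p = 0.0636). This value rests in part on control SNI replicate 23, without which it was -0.47, and it was called without control SNI replicate 15 (-0.95, edgeR adjusted p = 0.0096) or 18 (-0.95, edgeR adjusted p = 0.0289). With the 2 SNI groups alone in the fit the edgeR adjusted p was 0.553. In naive ganglia the averages were 27.0 ± 3.62 CPM in knockout and 40.6 ± 3.97 CPM in control (SD, n = 4 and 5), with a log2 difference of -0.58 (SE 0.168, 95% interval -0.94 to -0.23, unadjusted p = 0.0031, edgeR adjusted p = 0.103). It was called with the 2 naive groups alone in the fit (edgeR adjusted p = 0.000746) and with Wnt1-Cre controls only (edgeR adjusted p = 0.00826). With DESeq2, Gabrg1 was called lower in knockout ganglia in both states, at an adjusted p of 0.00901 in SNI and 0.0448 in naive ganglia. Averaged over both states, a contrast added after these values were seen, the log2 difference was -0.70 (SE 0.129, edgeR adjusted p = 0.00489), or 0.617 of the control level with a 95% interval of 0.51 to 0.746. This averaged difference passed the threshold under all 20 alternatives run, with an adjusted p of at most 0.0194. As the contrast was chosen for this gene, neither its p nor its passing under the alternatives, which reuse the same libraries, is independent evidence.

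Among the alpha subunits, Gabra2 was the member with a called difference, for SNI against naive in knockout mice (chromosome 5, 70957597 to 71095849, minus strand). It had 92.6, 87.3 and 86.9 CPM in knockout SNI, 79.1, 55.6 and 79.2 CPM in control SNI, 87.5, 53.9, 54.6 and 46.2 CPM in knockout naive, and 74.2, 75.6, 80.9, 71.2 and 68.2 CPM in control naive libraries. Knockout SNI libraries lay above all control libraries, while 3 of the 4 knockout naive libraries lay below all naive controls and the other, replicate 4, lay above them. After SNI in knockout mice it rose (89.0 ± 3.19 CPM after SNI, 60.6 ± 18.4 CPM naive, SD, n = 3 and 4), by 0.55 on the log2 scale with an SE of 0.17 (edgeR adjusted p = 0.0487), although the groups overlapped. The call was lost without any 1 of the other 6 knockout libraries (adjusted p up to 0.139), without the filter on low counts (0.0532) and with the 2 knockout groups alone in the fit (0.085), and it stood in 4 of 12 alternatives. Without knockout naive replicate 4 the log2 fold change was 0.79 (edgeR adjusted p = 0.00151). The corresponding value in control mice was -0.06 (95% interval -0.41 to 0.29, edgeR adjusted p = 0.897).

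For Gabra2 the difference between the injury effects, knockout minus control, was 0.61 on the log2 scale (95% interval 0.11 to 1.11, unadjusted p = 0.02), which did not pass after adjustment over all genes (edgeR adjusted p = 0.365). Knockout minus control was 0.32 in SNI ganglia (95% interval -0.06 to 0.71, edgeR adjusted p = 0.298, no overlap between the groups). It was -0.29 in naive ganglia (95% interval -0.61 to 0.03, edgeR adjusted p = 0.505), and -0.51 (edgeR adjusted p = 0.0434) without knockout naive replicate 4. The sign thus differed between the states.

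Gabra3, the alpha 3 subunit (chromosome X, 72432681 to 72656848, minus strand), had no called difference. It had 23.8, 16.8 and 19.01 CPM in knockout SNI, 17.1, 22.2 and 26.8 CPM in control SNI, a range of 18.03 to 26.04 CPM in knockout naive and of 16.1 to 21.9 CPM in control naive libraries, and all 4 groups overlapped. Knockout minus control was -0.14 in SNI ganglia (95% interval -0.52 to 0.25) and 0.21 in naive ganglia (-0.10 to 0.52) on the log2 scale. SNI minus naive was -0.10 in knockout mice (95% interval -0.46 to 0.25) and 0.24 in control mice (-0.10 to 0.59).

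Gabra5 encodes the alpha 5 subunit, known from extrasynaptic receptors with tonic currents in the hippocampus (chromosome 7, 57407672 to 57510059, minus strand). It was low, with 7.33, 10.5 and 8.30 CPM in knockout SNI, 13.1, 7.43 and 16.6 CPM in control SNI, 4.70 to 7.73 CPM in knockout naive and 6.20 to 8.77 CPM in control naive libraries. Control SNI replicates 15 and 23 lay above every naive library, and replicate 18 lay among the naive ones. SNI minus naive was 0.46 on the log2 scale in knockout mice (95% interval -0.04 to 0.96, edgeR adjusted p = 0.221). In control mice it was 0.75 (95% interval 0.29 to 1.22, edgeR adjusted p = 0.093), and DESeq2 called it higher (adjusted p = 0.0393). Without control SNI replicate 18 the control value was 1.03 (edgeR adjusted p = 0.0118), and without replicate 23 it was 0.52 (edgeR adjusted p = 0.191). With Wnt1-Cre controls only, which leaves replicate 15 as the only SNI control, it was 0.97. With the 2 control groups alone in the fit the edgeR adjusted p was 0.244. Gabra5 shares exon bases with the antisense gene Gm9962, which held 174 counts over all libraries against 1142 for Gabra5, and the strand setting of the counting is not given in the sources used here.

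Gabrb2, the beta 2 subunit (chromosome 11, 42419757 to 42629028, plus strand), had 10.9, 10.8 and 7.70 CPM in knockout SNI, 11.7, 10.5 and 14.9 CPM in control SNI, 12.0, 8.63, 10.9 and 9.80 CPM in knockout naive, and 15.6, 14.5, 16.2, 15.4 and 11.5 CPM in control naive libraries. Of the 5 naive controls, 4 lay above all naive knockouts, and replicate 7, a wild-type mouse, lay among them. Knockout minus control was -0.32 in SNI ganglia (95% interval -0.71 to 0.07, edgeR adjusted p = 0.306) and -0.50 in naive ganglia (95% interval -0.81 to -0.19, edgeR adjusted p = 0.108) on the log2 scale. With Wnt1-Cre controls alone the naive value was -0.57 (edgeR adjusted p = 0.0143).

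Neither GABA-B gene had a called difference. Gabbr1 (chromosome 17, 37045966 to 37075067, plus strand) had 519, 492 and 469 CPM in knockout SNI, 490, 374 and 372 CPM in control SNI, 393 to 460 CPM in knockout naive and 390 to 475 CPM in control naive libraries. The knockout SNI libraries lay above all knockout naive ones, and control SNI replicate 15 lay among the knockout SNI values. Knockout minus control was 0.26 on the log2 scale in SNI ganglia (95% interval 0.02 to 0.50, edgeR adjusted p = 0.192) and 0.41 without control SNI replicate 15 (edgeR adjusted p = 0.0155). It was 0.20 without replicate 23 (edgeR adjusted p = 0.494), and 0.01 with replicate 15, the Wnt1-Cre control, as the SNI control (edgeR adjusted p = 0.994). In naive ganglia it was -0.04 (95% interval -0.24 to 0.16). SNI minus naive was 0.22 in knockout mice (95% interval -0.01 to 0.44, edgeR adjusted p = 0.195) and -0.08 in control mice (-0.30 to 0.13). The difference of these effects was 0.30 (edgeR adjusted p = 0.379), and 0.45 without control SNI replicate 15 (edgeR adjusted p = 0.047). It was 0.24 without replicate 23 (edgeR adjusted p = 0.701) and 0.07 with Wnt1-Cre controls only (edgeR adjusted p = 0.977).

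Gabbr2 (chromosome 4, 46662305 to 46991873, minus strand) had 168, 166 and 154 CPM in knockout SNI, 214, 134 and 133 CPM in control SNI, 126 to 159 CPM in knockout naive and 142 to 206 CPM in control naive libraries, and the groups overlapped. Knockout minus control was 0.02 on the log2 scale in SNI ganglia (95% interval -0.34 to 0.38) and -0.26 in naive ganglia (-0.55 to 0.04). SNI minus naive was 0.17 in knockout mice (95% interval -0.17 to 0.51) and -0.10 in control mice (-0.43 to 0.22). The Gabbr1 level per kb was 2.61 ± 0.0562 times that of Gabbr2 in knockout SNI, 2.26 ± 0.246 times in control SNI, 2.53 ± 0.206 times in knockout naive and 2.20 ± 0.193 times in control naive ganglia. Over the 15 libraries, with group means removed, log2 CPM of both genes had a Pearson r of 0.922, given as a description of libraries that differ in depth and RNA content.

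**Figure D2:**
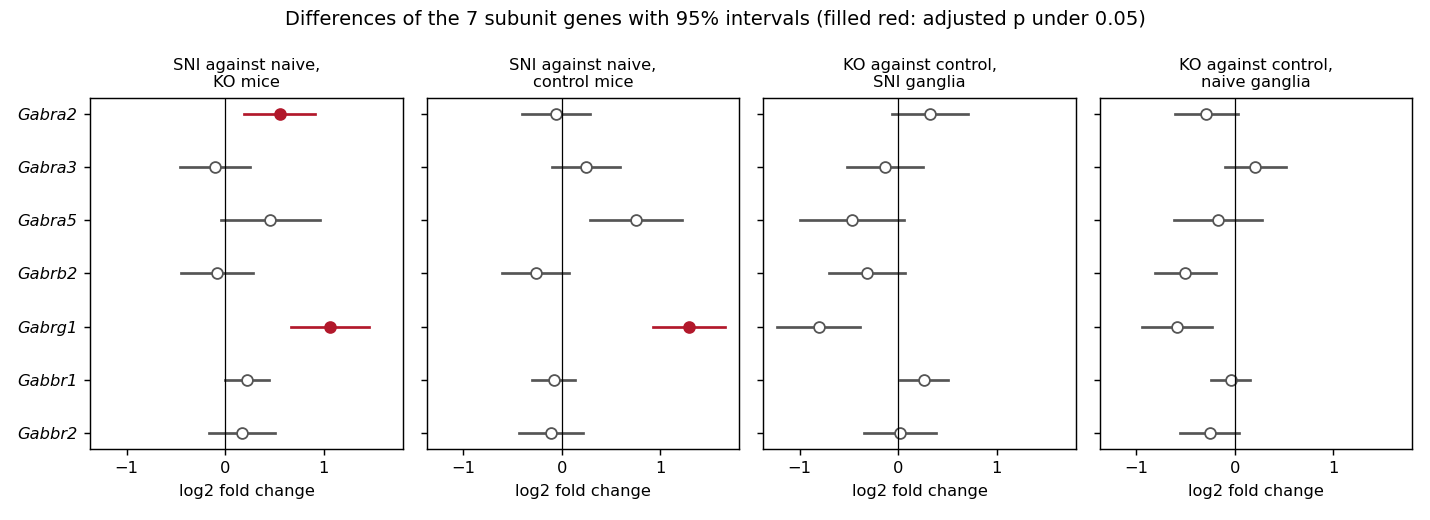
Log2 fold changes of the 7 members (horizontal axis) in SNI against naive ganglia of knockout and of control mice and in knockout against control ganglia with SNI and without; points are edgeR estimates, lines their 95% intervals, and filled red marks an adjusted p under 0.05. Gabrg1 passes in both injury comparisons and Gabra2 in knockout mice, and neither genotype comparison has a filled point.

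After SNI in knockout mice 2 of 7 members were called, both higher, where 10.1% of all genes were called and 7.17% were called higher, and the members' median log2 fold change was 0.22 against -0.02 over all genes tested. In control mice 1 of 7 was called after SNI, where 2.48% of all genes were, 2.12% as higher, and the median was -0.06 against 0.02. In each genotype 2 of 7 members had an unadjusted p under 0.05 for injury, where 27.0% of all genes did in knockout and 15.7% in control mice. None of the 7 was called for knockout against control in SNI ganglia, where 1.04% of all genes were, nor in naive ganglia, where 1.89% were. With DESeq2 the count was 1 of 7 in each state (Gabrg1), and 2 of 7 had an unadjusted edgeR p under 0.05 in each, where 22.7% of all genes did in SNI and 11.7% in naive ganglia. The members' medians were -0.14 in SNI and -0.26 in naive ganglia, against -0.01 and 0.00 over all genes. Groups did not overlap for 2 of 7 members in knockout SNI against naive (34.2% of all genes), 1 in control SNI against naive (8.21%), 2 in knockout against control with SNI (16.2%) and 1 in naive ganglia (9.63%). For the difference between the injury effects no member was called, and 0.0% of all genes were. There 1 of 7 had an unadjusted edgeR p under 0.05, where 13.4% of all genes did, and DESeq2 called 13 genes in all and none of the members. The averaged genotype contrast, added after the Gabrg1 values were seen, called 1 of 7 members, Gabrg1. It called 4.17% of all genes and 1.98% as lower, and as it was chosen for Gabrg1, that call is not independent evidence.

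The other receptor and partner genes fell into 5 lists with 53 tested genes. Of these, 8 were called after SNI in knockout mice, all higher, where 10.1% of all genes were called and 7.17% as higher. In control mice 1 was called, as higher, where 2.48% of all genes were called and 2.12% as higher. None was called for knockout against control with SNI or in naive ganglia. Of 11 other GABA-A subunit genes, 4 were tested, and Gabra6 had no count in any library. Gabrb1, the scarce beta 1 subunit, was called higher after SNI in knockout mice (4.56 ± 1.41 CPM after SNI, 2.41 ± 0.628 CPM naive, log2 fold change 0.89, edgeR adjusted p = 0.037). In control mice it had 3.50 ± 0.371 CPM after SNI and 1.74 ± 0.439 CPM in naive ganglia, with a log2 fold change of 1.00 just outside the threshold (edgeR adjusted p = 0.0548).

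Of 15 genes for GABA-B auxiliary proteins and effectors, 14 were tested. Called higher after SNI were 2 in knockout mice (7.17% of all genes called higher) and 1 in control mice (2.12%). Ajap1, whose protein binds the GABA-B receptor, was among them in both, with 3.80 ± 1.83 CPM after SNI and 0.886 ± 0.214 CPM naive in knockout mice (log2 fold change 2.13, edgeR adjusted p = 0.00146), and 1.86 ± 0.379 CPM after SNI and 0.576 ± 0.268 CPM naive in control mice (1.64, edgeR adjusted p = 0.0408). Gnai2, an inhibitory G protein alpha subunit, rose in knockout mice (log2 fold change 0.37, edgeR adjusted p = 0.0349). Ajap1 lies near the lower end of the tested levels, with 113, 44, 33 and 30 counts in all in knockout SNI, control SNI, knockout naive and control naive libraries.

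Of 18 genes for assembly and anchoring of GABA-A receptors, 4 were called higher after SNI in knockout mice, beside 7.17% of all genes called higher. None was called in control mice. An unadjusted edgeR p under 0.05 for injury was held by 7 of 18 in knockout mice (27.0% of all genes). In control mice it was held by 2 of 18 (15.7% of all genes). The averaged genotype contrast called 1 of the 18, as higher, where it called 4.17% of all genes. In knockout mice Nlgn2, the adhesion protein of inhibitory synapses, had 202 ± 26.6 CPM after SNI and 128 ± 12.6 CPM naive (log2 fold change 0.66, edgeR adjusted p = 0.0147). Zdhhc3, a palmitoyltransferase, rose by 0.41, Trak1, a trafficking adaptor, by 0.46 and Plcl1, which binds the receptor-associated protein Gabarap, by 0.45 on the log2 scale (edgeR adjusted p = 0.0158, 0.0496 and 0.0258). The list's median log2 fold change was 0.12 in knockout and 0.05 in control mice, against -0.02 and 0.02 over all genes. The scaffold Gphn had a log2 fold change of -0.14 in knockout and -0.08 in control mice, neither called.

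A single chloride transport gene and no gene of GABA metabolism was called. Slc12a2 had 212 ± 12.0 CPM in knockout SNI, 219 ± 3.94 CPM in control SNI, 185 ± 5.54 CPM in knockout naive and 212 ± 9.76 CPM in control naive ganglia, with no call in any comparison. The chloride exporter Slc12a5 was at 0.834 to 1.37 CPM as group means. Among 10 chloride transport genes, only Stk39, a kinase that activates Slc12a2, was called, at 195 ± 8.75 CPM after SNI and 145 ± 7.96 CPM naive in knockout mice (log2 fold change 0.43, edgeR adjusted p = 0.00765). None of 9 genes for GABA synthesis, transport and breakdown, 7 of them tested, was called in any comparison. At most 2 of the tested 7 had an unadjusted edgeR p under 0.05 in a comparison. This was for knockout against control, in naive ganglia (11.7% of all genes) and with SNI (22.7%). The synthetic enzyme Gad1 averaged 0.523 ± 0.132 CPM in knockout SNI and 1.34 ± 0.891 CPM in control SNI. It averaged 0.928 ± 0.381 CPM in knockout naive and 0.934 ± 0.276 CPM in control naive ganglia. Gad2, the other synthetic enzyme, went the other way with SNI, at 0.637 CPM in knockout and 0.0692 CPM in control ganglia. These SNI averages rest on few counts, 18 in knockout and 2 in control for Gad2 and 15 and 27 for Gad1. The naive averages of Gad2 were 0.145 CPM in knockout and 0.168 CPM in control ganglia, and it did not pass the filter on low counts. The vesicular transporter Slc32a1 had 1 count over all libraries.

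**Figure D3:**
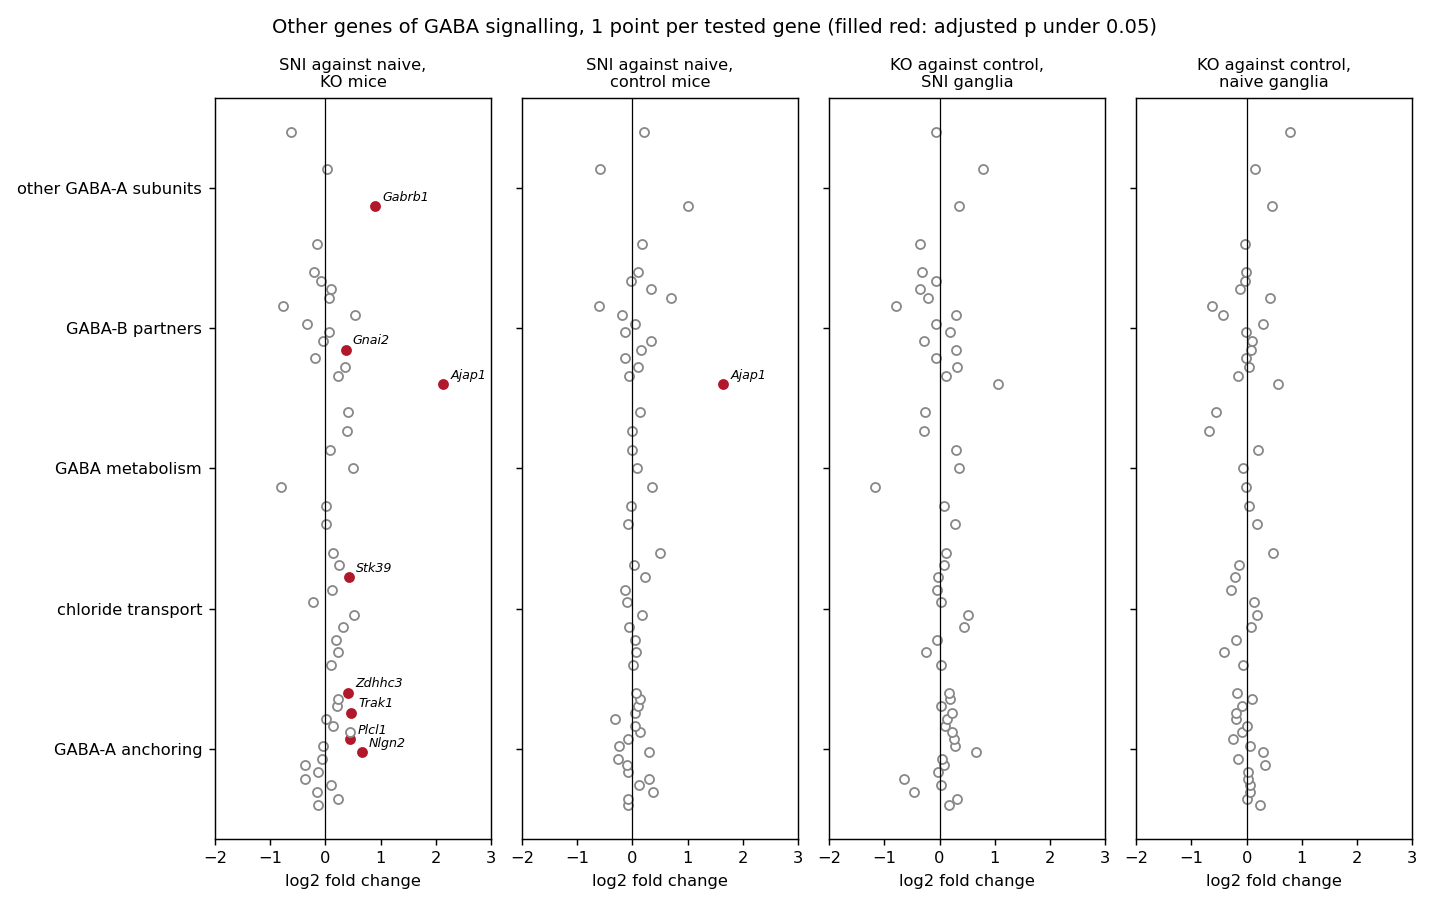
Log2 fold changes (horizontal axis) of the tested genes of 5 GABA signalling lists, 1 point per gene, in the 4 comparisons; filled red points are called at an edgeR adjusted p under 0.05 and named. Knockout SNI against naive has 8 called genes, control SNI against naive has Ajap1, and knockout against control has none, with SNI or in naive ganglia.

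For each member the 3 genes with the most similar log2 CPM over the 15 libraries were looked up among 13592 tested genes with at least 1 CPM on average, leaving out sex chromosomes and predicted genes. These correlations describe libraries that share group differences, depth and tissue make-up. Gabrg1 was followed most closely by Serpinb1a (Pearson r = 0.972), Tmem65 (0.933) and Nts, the neurotensin gene (0.929). With group means removed the values were 0.858, 0.573 and 0.406. Serpinb1a had log2 fold changes of 0.90 after SNI in knockout mice, 1.33 after SNI in control mice, -0.97 in knockout against control with SNI and -0.55 in naive ganglia. The nearest genes to Gabra2 were Cltc (0.851), Efcab14 and Fam3c. Gabra3 was nearest to Zfp830 (0.828), Slc46a3 and the vesicular glutamate transporter Slc17a6. Rasl11a (0.852), Twf1 and Wrb came nearest to Gabra5, and Dennd1b (0.877), Ncbp3 and the orexin receptor Hcrtr2 to Gabrb2. Gabbr1 had Arhgef11 (0.950), Trappc9 and Galnt17, and Gabbr2 had Lrrc8d (0.946), Pcnx2 and Asap1.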

How the data were processed

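Counts of reads per gene, without normalisation, are what the authors deposited. Per the labels' protocols, RNA was extracted with Trizol and libraries came from a stranded mRNA kit. The genome build GRCm38 and the tools TopHat2 2.0.4, HTSeq 0.6.1, Cufflinks, SAMtools and DESeq2 are named in the submitters' processing notes, without the annotation, strand setting or time after injury. Symbols from GENCODE M21 matched 37693 of 39179 identifiers, and the unmatched rows took 0.523% of the counts.

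Genes with a count numbered 27310, and 16976 of them passed filterByExpr (minimum count 10). A single edgeR 4.0.16 model with a mean per group covered all 15 libraries (TMM, robust quasi-likelihood F test, two-sided, 11 residual degrees of freedom). Called means an adjusted p under 0.05 (Benjamini-Hochberg, all tested genes). The fit was run on simulated counts drawn with the fitted spread and no outlying library. That run cannot show how a library such as control SNI replicate 23 affects the calls. Members, lists and the rule for named genes were chosen with earlier results of these data known. Named are the members, called genes of each list with up to 4 of smallest p, and the 3 genes most similar to each member, though not all are printed. Some genes of the receptor family are not reported here. Log2 CPM used a prior count of 2. P-values measure the spread between animals of these groups. Alternatives used DESeq2 1.42.0, other scaling, no filter, each pair of groups alone, Wnt1-Cre controls alone and each library left out, in R 4.3.3 and Python 3.11.15.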

Additional observations from a re-analysis of the deposited data

How the results depend on the processing

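No paired analysis was possible because each library came from a different mouse and the labels name no pairing. Of 511 fold changes of single members under the alternatives, 488 stayed on their side of the threshold, 15 gained the call and 8 lost it. The sign changed in 21, all of them values not called under either setting. These counts leave out the averaged contrast. There Gabrb2 gained the call in 4 of 20 alternatives and Gabbr2 in 1. The Gabrg1 rise was called in all 12 alternatives in knockout mice (log2 0.91 to 1.16) and all 14 in control mice (0.96 to 1.44). After SNI in knockout mice the count of members called was 1 without the filter on low counts. With only the groups compared it was 2, as Gabra2 lost its call (adjusted p = 0.085) and Gabbr1 gained one (0.0409). In control mice it was 2 with DESeq2 or Wnt1-Cre controls only. For knockout against control with SNI it was 1 with DESeq2. In naive ganglia it was 1 with DESeq2, and 2 with only the groups compared or with Wnt1-Cre controls only. For the averaged contrast it was 2 with DESeq2 or Wnt1-Cre controls only. Leaving out each library gave 1 to 2 members for SNI in knockout and in control mice, 0 to 2 for the genotypes with SNI, 0 to 1 in naive ganglia, 0 to 1 for the difference of injury effects and 1 to 2 for the averaged contrast. Over all genes, the 1717 calls for SNI in knockout mice became 4438 with only the 2 groups compared. The 421 in control mice became 673 with DESeq2, 213 with only the 2 groups compared and 259 with Wnt1-Cre controls only. Under the same alternatives the 177 for knockout against control with SNI became 955, 0 and 74, and the 321 in naive ganglia became 515, 1017 and 709. There were 0 calls for the difference of injury effects, 1 without the filter, 13 with DESeq2 and 1 with Wnt1-Cre controls only, and the 708 of the averaged contrast became 1079 with DESeq2. Leaving out each library gave 587 to 1626 calls for SNI in knockout mice, 283 to 1506 for SNI in control mice, 57 to 3558 for the genotypes with SNI, 151 to 229 in naive ganglia, 0 to 1235 for the difference and 480 to 2009 for the average. The highest counts for SNI in control mice, the genotypes with SNI, the difference and the average all came without control SNI replicate 15. The cause of these shifts was not tested. Alternatives were run for the members and for counts over all genes, not for single genes of the other lists. With only 1 Wnt1-Cre control after SNI, that library is assumed to vary like the other groups. The fit of only the groups compared was not run for the difference of effects or the averaged contrast, and Wnt1-Cre controls only does not apply to SNI in knockout mice.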
